A study of Mus musculus with 8 samples.

Results

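The regions described here are the DpnII restriction fragments of mouse chromosome 11 that lie more than 1 Mb and up to 10 Mb from the Ikzf1 promoter, as read by circular chromosome conformation capture (4C) from that promoter. They were chosen by distance alone, as every listed fragment whose midpoint was in that range on either side of the bait at position 11583520 (mm9). This gave 42047 of the 295444 fragments listed for the chromosome, 19079 upstream of the bait (towards the centromere, lower coordinates) and 22968 downstream. The upstream side was shorter because its farthest listed midpoint was 3004291, where the assembled sequence of the chromosome begins.

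The study set a 4C view of the Ikzf1 promoter in T cell precursors beside ES cells, and asked what removing the IkE120 enhancer and stimulating the cells did to it. There were 6 libraries of 4C, 1 per condition. DN3 cells (CD4-/CD8-/CD44lo/CD25+) came by sorting from thymuses of WT c57/Bl6 mice, young by the study's methods (the sample label gives low CD44, while the study's text calls the DN3 cells CD44 positive), and the ES cells were of the J1 line, grown on feeder cells and then passaged without them. The other 4 libraries were of P5424, a mouse line of immature T cells, either wt or with IkE120 deleted by genome editing on both alleles (ΔIkE120), each unstimulated or stimulated for 6 h with 20 µg/ml PMA plus 0.5 µg/ml ionomycin, which activate protein kinase C and calcium signalling. The file headers name the unstimulated libraries DMSO. The 5 libraries other than ES are called lymphoid below. H3K27ac peaks of wt and ΔIkE120 P5424 cells, 1 library each, were used at the genes of the same regions, and the sources used here do not say whether those cells were stimulated.

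Ikzf1 encodes Ikaros, a zinc finger transcription factor needed for lymphocyte development. In 4C, DNA held close to a bait promoter in fixed nuclei is ligated to it, and fragments are read from the junctions. Beyond the domain of a gene, such junctions are sparse, and in general they fall more often in chromatin of the same activity state as the bait.

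A fragment was called covered when it held at least 1 read, since read numbers at 1 ligation product also reflect PCR copies. Covered fragments in the range numbered 2072 in DN3, 3798 in ES, 2146 and 1546 in wt unstimulated and stimulated, and 2094 and 2026 in ΔIkE120 unstimulated and stimulated. The shares of listed fragments were 4.93% (95% Clopper-Pearson interval 4.72 to 5.14), 9.03% (8.76 to 9.31), 5.10% (4.89 to 5.32), 3.68% (3.50 to 3.86), 4.98% (4.77 to 5.19) and 4.82% (4.62 to 5.03) in the same order. ES was the highest library and wt stimulated the lowest, and the other 4 had overlapping intervals. There was no replicate of any condition, so the intervals cover counting error only, and PCR reads without molecular identifiers are not independent molecules. Reads on these fragments came to 204812 in DN3, 728926 in ES, 324022 and 282853 in wt unstimulated and stimulated, and 539697 and 338871 in ΔIkE120 unstimulated and stimulated. Over the whole chromosome the files held 1706371, 3366689, 1985101, 1707615, 3943018 and 2568897 reads in the same order.

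The ES share was 1.83 times that of DN3 (1.74 to 1.93) in the range. It was 1.77 times that of wt unstimulated, 2.46 times that of wt stimulated, 1.81 times that of ΔIkE120 unstimulated and 1.87 times that of ΔIkE120 stimulated. Within 1 Mb of the bait the ES to DN3 ratio was 1.92 (1.80 to 2.04), and over 10 Mb away it was 0.908 (0.868 to 0.949). ES was thus above DN3 within 10 Mb and below it beyond. P5424 did not share this reversal, as over 10 Mb away the ratio of ES was 1.27 to wt unstimulated, 1.36 to wt stimulated, 1.20 to ΔIkE120 unstimulated and 1.02 (0.976 to 1.07) to ΔIkE120 stimulated. By the study's methods, ES nuclei were opened with a milder detergent step than DN3 and P5424 nuclei, and this step and the cell type cannot be told apart.

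The lymphoid libraries were lopsided and ES was not. Upstream of the bait 7.29% of fragments were covered in DN3, 9.20% in ES, 6.96% and 5.39% in wt unstimulated and stimulated, and 6.89% and 6.97% in ΔIkE120 unstimulated and stimulated. Downstream the shares were 2.97%, 8.89%, 3.56%, 2.25%, 3.39% and 3.03%. The upstream to downstream ratio was 2.45 in DN3 (2.24 to 2.69), 1.95 (1.79 to 2.13) and 2.39 (2.15 to 2.66) in wt unstimulated and stimulated, and 2.03 (1.86 to 2.22) and 2.30 (2.09 to 2.52) in ΔIkE120 unstimulated and stimulated, against 1.03 in ES (0.970 to 1.10). Each lymphoid interval lay above that of ES. The ES to DN3 ratio was accordingly 1.26 (1.18 to 1.36) upstream and 3.00 (2.75 to 3.27) downstream.

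Up to 7 Mb, ES coverage fell with distance on both sides, though not in every step. It was 15.1%, 19.4%, 9.56%, 8.30%, 4.95% and 3.23% in the steps from 1 to 2 Mb up to 6 to 7 Mb upstream, and 18.83%, 11.02%, 8.08%, 7.82%, 8.75% and 4.48% in the same steps downstream. Farther out it did not fall on, with 3.89% and 7.87% in the last 2 steps upstream and 7.22%, 7.51% and 5.67% in the last 3 downstream. DN3 did not decline in this way. Upstream its shares were 9.11%, 10.1%, 8.43%, 3.10%, 8.23% and 4.81%, and downstream 1.39%, 1.38%, 0.425%, 1.40%, 3.84% and 0.708%, with 8.95% at 8 to 9 Mb. Downstream, DN3 coverage was thus higher 8 to 9 Mb from the promoter than 1 to 2 Mb from it, and the same held for wt unstimulated (7.85% against 3.31%), wt stimulated (6.54% against 1.39%) and both ΔIkE120 libraries (7.43% against 2.97% unstimulated, 7.68% against 2.18% stimulated).

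In bins of 200 kb counted outward from the bait, the range held 83 bins, 38 upstream and 45 downstream, with 428 to 590 listed fragments each. Every bin had a covered fragment in all 6 libraries, so the count of bins covered in all 5 lymphoid libraries was 83 of 83 and did not separate regions. The bins held 1 to 159 covered fragments in DN3 (median 20), 11 to 128 in ES (36), 4 to 78 in wt unstimulated (22), 1 to 81 in wt stimulated (16), 4 to 88 in ΔIkE120 unstimulated (24) and 1 to 83 in ΔIkE120 stimulated (25). A stricter count, chosen after the values were seen, asked for at least 10 covered fragments in each lymphoid library. It was met by 49 bins, 35 upstream and 14 downstream, whereas ES met it in all 83. With only fragments of 200 to 2000 bases that hold a GTAC site it was met by 28.

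To compare libraries, the covered share of a bin was divided by the covered share of all fragments more than 1 Mb from the bait in the same library (relative coverage). A bin was called higher or lower in lymphoid cells when all 5 lymphoid libraries lay on the same side of ES, their median was at least 2 fold away, and the 6 libraries together had at least 10 covered fragments. Of the 83 bins, 10 were called higher (9 upstream and 1 downstream), which is 12.0%, against 25.8% of the 523 bins tested over the chromosome beyond 1 Mb. A total of 35 bins were called lower (7 upstream and 28 downstream), which is 42.2%, against 21.2% over the chromosome. Unlike the count of higher bins, that of lower bins was not planned. Scaled to the range alone, 19 bins were higher and 29 lower. Relative to ES, and with libraries scaled beyond 1 Mb, the range was thus poor in lymphoid-high bins and rich in lymphoid-low bins. That scaling keeps the higher covered share of ES in the range, and the number of lymphoid-high bins depended on it. In plain numbers of covered fragments, 14 bins had more in every lymphoid library than in ES and 51 had fewer.

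The bin with the highest shared lymphoid coverage lay in a gene-dense stretch at 5.6 to 6.6 Mb, where 5 bins held 26 protein-coding genes. Over this stretch 8.23% of fragments were covered in DN3, 4.95% in ES, 10.5% and 9.12% in wt unstimulated and stimulated, and 10.7% and 11.2% in ΔIkE120 unstimulated and stimulated. This stretch, like the others below, was joined from bins after their values were seen. Its intervals give counting error only and are no test of the difference. Every lymphoid interval was above that of ES, whose upper bound was 5.88% against a DN3 lower bound of 7.18%. Its outermost bin on the bait side, chr11:6383520-6583519, had 72 covered fragments in DN3, 34 in ES, 78 and 81 in wt unstimulated and stimulated, and 88 and 69 in ΔIkE120 unstimulated and stimulated, of 485 listed. Its lowest lymphoid relative coverage was 6.99, above that of every other bin in the range, and the median lymphoid value was 3.40 times ES. The genes that start there are Myo1g, a myosin of blood cells, Ccm2, an adaptor of endothelial junction signalling, Nacad, Tbrg4, a mitochondrial RNA-binding protein, Wap, a milk protein, and Ramp3, a receptor-modifying membrane protein. Ccm2 alone held 25 covered fragments in DN3, 8 in ES, 21 and 22 in wt unstimulated and stimulated, and 30 and 20 in ΔIkE120 unstimulated and stimulated, of 113 in the gene.

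The neighbouring bin, chr11:6183520-6383519, had 50 covered fragments in DN3, 24 in ES, 70 and 59 in wt unstimulated and stimulated, and 78 and 83 in ΔIkE120 unstimulated and stimulated, of 515. The median lymphoid relative coverage was 4.32 times ES. Its genes are Ogdh, an enzyme of the citric acid cycle, Zmiz2, a transcriptional coregulator, Ppia, the cyclophilin A prolyl isomerase, H2afv, a histone variant, and Purb, a single-strand DNA binding protein. Both bins were therefore high in every lymphoid library, with the ES counts less than the lowest lymphoid count.

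Farther out, the largest lymphoid to ES ratio of the range was 4.58, in chr11:4983520-5183519. The counts there were 27 in DN3, 11 in ES, 47 and 32 in wt unstimulated and stimulated, and 34 and 38 in ΔIkE120 unstimulated and stimulated, of 428 listed. This bin holds Ewsr1, an RNA-binding protein, Rhbdd3, Gm11031, Emid1 and Kremen1, a Wnt pathway receptor. The next bin towards the bait, chr11:5183520-5383519, spans Znrf3, a ubiquitin ligase that removes Wnt receptors, and had 24 in DN3, 15 in ES, 41 and 32 in wt, and 32 and 47 in ΔIkE120, a ratio of 3.75. DN3 was the lowest lymphoid library in both, so that its excess over ES was smaller than that of P5424. When reads replaced covered fragments, the bin of Ewsr1 no longer met the rule.

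At the far end of the upstream side, chr11:2983520-3183519 (Sfi1, a centrosome protein, Drg1, a GTPase, and Eif4enif1, a transporter of a translation factor) had 61 covered fragments in DN3, 60 in ES, 40 in both wt libraries, and 45 and 52 in ΔIkE120, of 440. Its lowest lymphoid relative coverage was high, 5.20, but ES was as high, and the ratio was 1.15. Most of the ES count lay in 1 gene, Sfi1. Of its 132 fragments, 38 were covered in ES, 27 in DN3, 8 and 12 in wt unstimulated and stimulated, and 11 and 18 in ΔIkE120 unstimulated and stimulated. The adjoining chr11:3183520-3383519 (Patz1, a zinc finger factor of thymocytes, Pik3ip1, an inhibitor of PI3 kinase, Limk2, an actin-regulating kinase, and Rnf185, a ubiquitin ligase) had 55 in DN3, 31 in ES, 49 and 35 in wt, and 56 and 62 in ΔIkE120, with a ratio of 2.34. This call was lost when runs of neighbouring covered fragments were counted as 1 and when only fragments of 200 to 2000 bases with a GTAC site were used.

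Downstream, the bins with the highest shared lymphoid coverage lay beyond 19783521. The 8 bins from there to 21383520 held 12 protein-coding genes, and 8.39% of their fragments were covered in DN3, 6.49% in ES, 7.77% and 6.67% in wt unstimulated and stimulated, and 7.46% and 7.85% in ΔIkE120 unstimulated and stimulated. DN3 (7.54 to 9.32) was above ES (5.73 to 7.32), and the intervals of the 4 P5424 libraries overlapped that of ES. These bins, too, were joined after their values were seen. The bin of Spred2, an inhibitor of Ras to MAP kinase signalling (chr11:19783521-19983520), had 58 in DN3, 35 in ES, 43 and 41 in wt, and 45 and 50 in ΔIkE120, of 471. In chr11:19983521-20183520, with Actr2, an actin nucleator, Rab1, a vesicle transport GTPase, and Cep68, a centrosome protein, the counts were 55, 36, 35, 32, 37 and 39 in the order DN3, ES, wt unstimulated, wt stimulated, ΔIkE120 unstimulated and ΔIkE120 stimulated. The bin of Sertad2, a transcriptional coregulator (chr11:20383521-20583520), had 39, 30, 55, 37, 41 and 44 in that order. None of these 3 bins reached 2 fold over ES.

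Only chr11:20983521-21183520 was called higher in lymphoid cells on the downstream side. It had 50 covered fragments in DN3, 18 in ES, 37 and 40 in wt unstimulated and stimulated, and 38 and 44 in ΔIkE120 unstimulated and stimulated, of 476, and the ratio to ES was 3.24. It holds the start of Peli1, a ubiquitin ligase of receptor signalling in immune cells, and that of Vps54, a subunit of a vesicle tethering complex. The call was kept in 12 of 12 alternatives with the same bins.

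The opposite pattern filled the downstream side next to the bait domain. From 12583521 to 16383520, 19 bins held the start of 1 protein-coding gene, Vstm2a, a secreted protein of brain and fat. There 11.5% of fragments were covered in ES, against 1.01% in DN3, 2.41% and 0.940% in wt unstimulated and stimulated, and 2.01% and 1.56% in ΔIkE120 unstimulated and stimulated. Single bins held 29 to 128 covered fragments in ES, 1 to 14 in DN3, 4 to 22 in wt unstimulated, 1 to 9 in wt stimulated, 5 to 18 in ΔIkE120 unstimulated and 3 to 17 in ΔIkE120 stimulated, so the lowest ES bin exceeded the highest lymphoid one. All 19 were called lower in lymphoid cells. The smallest ratios to ES were 0.0948 in chr11:12983521-13183520 (5 in DN3, 112 in ES, 21, 6, 18 and 8 in the P5424 libraries), 0.143 in the bin of Vstm2a (6, 51, 7, 2, 7 and 5), 0.149 in chr11:13383521-13583520 (8, 80, 13, 6, 15 and 9) and 0.161 in chr11:12783521-12983520 (3, 107, 16, 8, 17 and 13), the last 3 in the same library order. Wt unstimulated and both ΔIkE120 libraries were above the DN3 share here, with intervals of 2.12 to 2.73, 1.74 to 2.30 (unstimulated) and 1.33 to 1.83 (stimulated) against 0.824 to 1.22, and wt stimulated (0.761 to 1.15) was not. This stretch was also joined after its values were seen.

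Between this gene-poor stretch and the Spred2 bins lay an island of 4 bins with 10 protein-coding genes, from Sec61g to C1d (16383521 to 17183520). Its covered share was 5.18% in DN3, 10.7% in ES, 6.96% and 4.61% in wt unstimulated and stimulated, and 7.54% and 6.91% in ΔIkE120 unstimulated and stimulated. Every lymphoid library was thus at least 2 fold above its own share in the gene-poor stretch, whereas ES was at a similar level in both. Egfr, the receptor of epidermal growth factor, held 20 covered fragments in DN3, 44 in ES, 38 and 31 in wt, and 45 and 42 in ΔIkE120, of 345. Beyond the island, 8 bins from 17183521 to 18783520 with only Etaa1, a factor of the replication stress response, fell again to 1.02% in DN3, 4.98% in ES, 1.66% and 0.830% in wt, and 1.76% and 1.44% in ΔIkE120.

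On the upstream side 5 of the 7 lymphoid-low bins lay over Abca13, a large lipid transporter gene, and the sequence next to it towards the bait. Over 8983520 to 9983519, 18.2% of fragments were covered in ES, 5.14% in DN3, 5.64% and 3.53% in wt unstimulated and stimulated, and 4.45% and 5.41% in ΔIkE120 unstimulated and stimulated. All 5 bins of this stretch were called lower, but 3 of them lost the call when libraries were scaled to the range alone. Abca13 itself had 262 covered fragments in ES against 77 in DN3, 75 and 52 in wt, and 62 and 74 in ΔIkE120, of 1245.

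DN3 and P5424 differed at several of these places, in a comparison chosen after the values were seen, with DN3 above or below all 4 P5424 libraries and at least 2 fold from their median. DN3 was higher in 5 of 83 bins, against 15.0% of 486 tested over the chromosome, and lower in 24, against 15.4%. The highest DN3 count of the range was at Tns3, a focal adhesion protein. In chr11:8383520-8583519 there were 159 covered fragments in DN3 of 489 listed, against 82 in ES, 64 and 42 in wt unstimulated and stimulated, and 71 and 55 in ΔIkE120 unstimulated and stimulated. The next bin, chr11:8583520-8783519, without a gene start, had 121 in DN3, 79 in ES, 39 and 27 in wt, and 40 and 36 in ΔIkE120. Together 28.6% of the fragments of both bins were covered in DN3 (25.8 to 31.6), 16.5% in ES (14.2 to 18.9) and 7.06% to 11.3% in P5424. The relative coverage of DN3 was 2.30 and 2.79 times the P5424 median in these bins, and both calls were lost when runs of neighbouring covered fragments were counted as 1. The Tns3 bin also lost its call with GTAC fragments of 200 to 2000 bases.

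Meis1, a homeobox factor of blood stem cells, lay in the bin with the largest DN3 to P5424 ratio, 4.08 (chr11:18783521-18983520). The counts there were 36 in DN3, 41 in ES, 10 and 4 in wt unstimulated and stimulated, and 10 and 3 in ΔIkE120 unstimulated and stimulated, of 432. Inside the gene body 28 of 286 fragments were covered in DN3 and 25 in ES, against 6, 3, 6 and 2 in the P5424 libraries. DN3 was as high as ES at this gene and every P5424 library was lower. The bin kept its call in 6 of 6 alternatives, and the bins on either side had 9 and 11 covered fragments in DN3. The remaining DN3-high bins were chr11:10183520-10383519 (82 in DN3, 88 in ES, 27 to 40 in P5424) and chr11:19383521-19583520 (12, 33 and 2 to 6), both without a gene start. Each kept its call in 4 of 6 alternatives, and both lost it with the GTAC fragments.

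DN3 fell below P5424 from 6783520 to 8183519. The bin of Adcy1, an adenylate cyclase of brain (chr11:6783520-6983519), had 16 in DN3, 40 in ES, 44 and 40 in wt, and 34 and 33 in ΔIkE120, and that of Igfbp1 and Igfbp3, carriers of insulin-like growth factors (chr11:6983520-7183519), had 17, 41, 54, 54, 51 and 40. DN3 was below ES and below every P5424 library in both bins, and in the second 3 of the 4 P5424 libraries had more covered fragments than ES. In the 5 bins without a gene start from 7183520 to 8183519, the covered share was 1.21% in DN3 (0.823 to 1.71), 7.14% in ES, 3.63% and 2.26% in wt, and 3.39% and 2.58% in ΔIkE120. The smallest DN3 to P5424 ratio, 0.0927, was at chr11:7383520-7583519, with 1 covered fragment in DN3, 39 in ES and 14, 6, 9 and 10 in P5424. The other 3 of the lowest were chr11:15183521-15383520 (1 in DN3 and 4 to 13 in P5424), chr11:18183521-18383520 (1 and 1 to 5) and chr11:12783521-12983520.

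With both sides pooled, lymphoid coverage was higher in bins with genes, and ES coverage was lower. Of the 83 bins, 45 held no start of a protein-coding gene. In them 3.20% of fragments were covered in DN3, 10.5% in ES, 3.53% and 1.98% in wt unstimulated and stimulated, and 3.07% and 2.71% in ΔIkE120 unstimulated and stimulated. In the 14 bins with 4 or more genes the shares were 7.16%, 5.70%, 8.27%, 6.80%, 8.60% and 8.83%. The order of the classes was thus opposite in ES and in the lymphoid libraries. Of these 14 bins, 13 were upstream. On that side, all bins without a gene start lay within 5.0 Mb of the bait. All with 4 or more genes lay beyond 5.0 Mb, except the bin of Pkd1l1, Hus1, Sun3 and Gm11992. ES coverage also fell with distance, as given above, so gene number and distance from the bait cannot be told apart upstream. On the downstream side, the 14 bins with 1 to 3 genes had 6.41% covered in DN3, 7.55% in ES, 5.94% and 4.75% in wt, and 6.03% and 5.89% in ΔIkE120, and the 30 bins without genes 1.39%, 9.39%, 2.34%, 1.09%, 2.05% and 1.66%. In the only downstream bin with 4 or more genes ES was at 11.7% (8.92 to 14.9), so the fall of ES with gene number was not seen there. Upstream, DN3 differed little between bins without genes (6.84%) and bins with 4 or more (7.22%), and the bins without genes include that next to Tns3, where DN3 reached 24.7%.

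Base composition moved with the same contrast. Over the 83 bins, relative coverage against GC percent had a Pearson r of 0.47 in DN3, -0.36 in ES, 0.60 and 0.68 in wt unstimulated and stimulated, and 0.61 and 0.65 in ΔIkE120 unstimulated and stimulated. By side, r was 0.14 upstream and 0.75 downstream in DN3, -0.58 and -0.26 in ES, and 0.34 to 0.49 and 0.60 to 0.68 in P5424. Neighbouring bins are not independent and gene number and GC rise together, so the part of GC in the coverage of gene-rich bins was not tested. Relative coverage of 2 P5424 libraries correlated across bins with r of 0.87 to 0.93, DN3 with P5424 with 0.64 to 0.74, and ES with the lymphoid libraries with -0.08 to 0.22. These values describe 83 bins that share fragment number, mappability and distance from the bait.

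The range held 118 protein-coding genes by symbol, 90 upstream and 28 downstream. Gene bodies of the fixed lists were compared with all 118, of whose 12290 fragments 8.05% were covered in DN3, 9.03% in ES, 7.76% and 6.27% in wt unstimulated and stimulated, and 7.73% and 7.85% in ΔIkE120 unstimulated and stimulated. For 13 of 14 listed genes of the immune system and blood found here the shares were 10.0%, 8.27%, 8.33%, 7%, 7.93% and 8.47%. For 29 of 29 broadly expressed genes they were 8.32%, 6.23%, 7.85%, 6.18%, 8.84% and 8.04%. For 18 of 22 genes restricted to tissues outside blood they were 9.04%, 14.9%, 8.16%, 6.23%, 7.83% and 7.18%. In ES, tissue-restricted genes were covered most and broadly expressed ones least. Distance from the bait was not matched between the lists. Abca13 and Tns3 supplied 1245 and 549 of the 3871 fragments of the tissue-restricted list, and Tns3 alone 148 of its 350 covered fragments in DN3. Without these genes, left out after the values were seen, the shares of the list were 6.02%, 10.4%, 8.47%, 6.79%, 7.99% and 7.08%, so that DN3 went from above the broadly expressed list to below it.

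Within the immune list, Spred2 had 35 covered fragments in DN3, 21 in ES, 18 and 21 in wt, and 22 and 31 in ΔIkE120, of 236. Sertad2 had 24, 23, 31, 20, 31 and 26 of 233, and Ppp3r1, the regulatory subunit of calcineurin, had 7, 11, 15, 11, 11 and 12 of 97. Plek, a protein kinase C substrate of blood cells, had 14 in DN3, 16 in ES and 5 to 8 in P5424, of 176. Osm, Lif and Xbp1, which encode 2 cytokines and a factor of secretory cells, had 0 to 5 covered fragments in any library, too few for a comparison.

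H3K27ac, a mark of active promoters and enhancers, was looked up at these genes in P5424. Of the 118 genes, 95 matched a RefSeq promoter by symbol, and 61 of them (64.2%) had a wt peak within 1 kb of a start, 42 of 71 upstream and 19 of 24 downstream. Over all 17492 protein-coding genes with a promoter entry the share was 47.5%. The same 61 genes had a peak in ΔIkE120, so that no gene of the range differed in peak presence at this distance. Within 2.5 kb there were 63 genes with a wt peak and 61 with a ΔIkE120 peak, and the 2 with a wt peak only were Sec14l2 and Gatsl3, in the same bin. Of the cell type markers, 9 of 9 matched T cell precursor genes (Ptcra, Rag1, Rag2, Cd3e, Cd3g, Bcl11b, Tcf7, Gata3 and Lck) had a wt peak, against 1 of 6 ES genes (Pou5f1) and 0 of 3 genes of fibroblast feeder cells. The 4C files hold no marker for DN3 or ES cells.

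With both sides pooled, lymphoid coverage was higher in bins with marked genes. In the 29 bins with 1 or more genes that had a wt peak, 8.00% of fragments were covered in DN3 (7.55 to 8.46), 6.68% in ES (6.27 to 7.10), 7.56% and 6.16% in wt unstimulated and stimulated, and 7.92% and 8.02% in ΔIkE120 unstimulated and stimulated. In the 8 bins with a matched gene but no wt peak, the shares were 4.30% in DN3 (3.68 to 4.98), 9.73% in ES (8.82 to 10.7), 5.35% and 4.58% in wt, and 5.71% and 5.38% in ΔIkE120. The bin of Znrf3 is in neither class, since no promoter matched its only gene. Distance from the bait was not matched between the classes. With both sides pooled, the 8 bins were between the marked bins and the bins without genes in each library. By side this did not hold for DN3 upstream (6.84% without genes, 4.43% without a peak and 8.71% with one) or for ES downstream (9.39%, 9.97% and 7.29%). All 27 matched broadly expressed genes and 9 of 12 matched immune genes had a peak, against 2 of 17 tissue-restricted ones, Slc1a4 and Tns3. The deposited -log10 q at the Tns3 promoter was 8.23 in wt and 7.47 in ΔIkE120, at Peli1 21.8 and 24.4, at Spred2 9.72 and 12.4, and at Ccm2 15.1 and 15.4. Of the 61 genes, 29 had a higher value in wt and 32 in ΔIkE120. Among those named after the values were seen, it fell from 22.1 to 8.23 at Patz1, 7.88 to 3.23 at Pik3ip1, 10.4 to 5.39 at Polm and 17.0 to 10.4 at Sertad2. It rose from 7.65 to 12.1 at Ascc2, 15.3 to 21.6 at C1d, 11.2 to 17.3 at Sf3a1 and 9.60 to 14.2 at Uqcr10. Sf3a1 has the same values as Ccdc157, and Uqcr10 the same as Zmat5, so the 61 genes are not all separate peaks. These are q-values of 1 library per genotype and not measures of the level of the mark, and the differences were not tested. Meis1, Plek and Lif had no peak within 1 kb. Single bins did not all follow the mark. That of Etaa1, which had a peak, was covered at 1.57% in DN3 and 1.77% to 3.33% in P5424, and that of Igfbp1 and Igfbp3, which had none, at 9.15% to 12.4% in P5424.

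In unstimulated cells, the covered shares of the ΔIkE120 clone and of wt were similar over the range, though single bins differed more when counted in reads. The covered share of ΔIkE120 was 0.976 times that of wt (0.918 to 1.04), with 0.990 upstream and 0.952 downstream. Past 2 fold were 6 of 83 bins, 2 higher in ΔIkE120 against 6.72% over the chromosome and 4 lower against 5.6%. The higher ones were chr11:5383520-5583519, with Xbp1, Ccdc117 and Ankrd36 (16 in wt and 35 in ΔIkE120, fold 2.14, 1.15 to 4.13), and chr11:17383521-17583520 (5 and 11, fold 2.15, 0.688 to 7.88). The lowest were chr11:15183521-15383520 (13 and 5, fold 0.375, 0.105 to 1.12) and chr11:16183521-16383520 (12 and 5, fold 0.407, 0.112 to 1.24). Of all 6 called bins, the interval left out 1 in the Xbp1 bin and in chr11:14183521-14383520 (19 and 8, fold 0.411, 0.156 to 0.983). These intervals are not adjusted for the number of bins. After stimulation the Xbp1 bin had 17 in wt and 42 in ΔIkE120, a relative fold of 1.86 and no call.

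In stimulated cells the share of ΔIkE120 was 1.31 times that of wt (1.23 to 1.40) in the range and 1.33 times over 10 Mb away (1.27 to 1.40). The difference was as large outside the range as in it, and wt stimulated had the fewest covered fragments on the whole chromosome, 5548 against 6576 to 10310. Relative coverage, which takes this out, passed 2 fold in 6 of 74 bins tested, 3 higher against 6.59% over the chromosome and 3 lower against 5.13%. The largest folds were 8.30 (1.21 to 357) in chr11:13983521-14183520, from 1 covered fragment in wt and 11 in ΔIkE120, and 2.52 (0.648 to 14.2) in chr11:14183521-14383520, from 3 and 10. Lower were chr11:6583520-6783519 (51 and 29, fold 0.429, 0.262 to 0.690) and chr11:19583521-19783520 (18 and 11, fold 0.461, 0.197 to 1.03). In unstimulated cells chr11:6583520-6783519 had 67 in wt and 36 in ΔIkE120, a fold of 0.5245 and no call. Of all 6 bins called, 2 had an interval that left out 1. The share of bins called lower was near that over the chromosome in both states (4.82% of bins in unstimulated and 4.05% in stimulated cells). Counted in reads, 39 bins passed 2 fold in unstimulated cells (21 higher) and 23 in stimulated cells (16 higher), and with at least 10 reads per covered fragment 11 did in unstimulated cells (6 higher).

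Coverage of the downstream bins was lower after stimulation. In wt cells the covered share in the range fell to 0.720 times the unstimulated value (0.674 to 0.769), with 0.774 upstream, 0.633 downstream (0.566 to 0.708) and 0.931 over 10 Mb away. In ΔIkE120 cells it was 0.968 times (0.910 to 1.03), with 1.01 upstream, 0.895 downstream (0.807 to 0.992) and 1.17 over 10 Mb away. In both genotypes the downstream ratio was thus below the upstream one, though the direction rests on 1 library per state. Of 78 bins tested in wt, 0 were higher after stimulation against 6.64% over the chromosome, and 14 were lower (17.9%, 13 of them downstream) against 8.98%. Of 82 tested in ΔIkE120, 0 were higher against 7.29%, and 8 were lower (9.76%, 7 downstream) against 6.25%. The interval left out 1 in 8 of the 14 lower bins of wt and in 2 of the 8 of ΔIkE120, so most calls in ΔIkE120 were within counting error. In wt the lowest folds were 0.0848 (0.00201 to 0.557) in chr11:13983521-14183520, where counts went from 14 to 1, and 0.108 (0.00251 to 0.743) in chr11:17583521-17783520, from 11 to 1. In ΔIkE120 they were 0.275 (0.0487 to 1.07) in the Meis1 bin, from 10 to 3, and 0.306 (0.0533 to 1.23) in chr11:18583521-18783520, from 9 to 3. The 8 bins of ΔIkE120 became 3 when bins were shifted by 100 kb and 5 when libraries were scaled to the range alone, the 14 bins of wt became 9 with GTAC fragments of 200 to 2000 bases, and reads gave 41 and 33 bins in wt and ΔIkE120. The absence of higher bins did not hold throughout. In wt 1 was higher with the GTAC fragments and 1 in bins of 100 kb. Nor did it hold in reads, where 13 were higher and 28 lower in wt and 8 higher and 25 lower in ΔIkE120, and with at least 10 reads per covered fragment 2 were higher in wt and 1 in ΔIkE120. The contrasts of genotype and of stimulation share their 4 libraries, all are of 1 line, and the ΔIkE120 cells are 1 clone, so that differences between clones and the deletion cannot be told apart.

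Single fragments were rarely covered more than once. Of the 42047 fragments, 31326 were covered in no library, 8330 in 1, 1907 in 2, 409 in 3, 66 in 4, 7 in 5 and 2 in all 6. Between DN3 and ES 308 fragments were shared, 14.9% of the DN3 set and 8.11% of the ES set. Between both wt libraries 236 were shared (11% of unstimulated, 15.3% of stimulated) and between both ΔIkE120 libraries 305 (14.6% and 15.1%). Most covered fragments of a library were thus not covered in the other library of a pair. Even so, every pair shared more than the number given by the shares of both libraries in each bin, by 1.38 to 2.03 times over all pairs, with 212 given by the shares for DN3 and ES and 121 for wt. Covered fragments were longer than listed ones, with medians of 333 to 389 bases against 260, and held a GTAC site, the cut site of the second enzyme Csp6I, more often (50.05% to 54.7% against 44.7%). In the lymphoid libraries 42.3% to 47.6% of covered fragments lay in a protein-coding gene, against 28.0% in ES and 27.3% of all listed. The sides differed, with 8271 of 19079 listed fragments in such genes upstream and 3206 of 22968 downstream, and lymphoid coverage leaned upstream. In DN3, 8.26% of fragments in genes and 6.54% outside were covered upstream, and 8.33% and 2.1% downstream. In ES the shares were 9.42% and 9.03% upstream, and 8.83% and 8.91% downstream.

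Of the fragments covered in the most libraries, 8 are shown as those on which reads recurred most across libraries. Sequences are of the plus strand of mm9, capitals mark the DpnII site GATC and the Csp6I site GTAC, and fragments over 300 bases are given by the 120 bases at their left end. Of the pair covered in all 6 libraries, the longer one spans chr11:10177373-10178294, outside genes and nearest to Abca13, and had 27 reads in DN3, 62 in ES, 9 and 15 in wt unstimulated and stimulated, and 3 and 23 in ΔIkE120 unstimulated and stimulated. The other is 39 bases long, in the gene-poor downstream stretch, and had 2, 11, 3, 2, 6 and 1 reads. The last 36 bases of this short fragment occur at 3 places in the mm9 sequence, so its reads may come from elsewhere; the ends of the other fragments shown occur at 1 place each.
chr11:10177373-10177492: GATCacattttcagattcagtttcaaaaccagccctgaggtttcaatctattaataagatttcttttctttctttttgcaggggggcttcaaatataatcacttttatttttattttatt
chr11:13818972-13819010: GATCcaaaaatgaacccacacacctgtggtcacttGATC

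The next fragments are 6 of the 7 covered in 5 libraries, those whose smallest read count above 0 was largest. That in Ccm2 (a stretch that 1 non-coding transcript model of the gene counts in part as exon) was missing in DN3 only, and had 100 reads in ES, 178 and 128 in wt, and 130 and 361 in ΔIkE120. That outside genes and nearest to Purb had 304 in DN3, 6 in ES, 3020 and 0 in wt, and 5 and 17 in ΔIkE120. The fragment in an intron of Drg1 had 0 reads in DN3, 2 in ES, 6 in both wt libraries, and 204 and 18 in ΔIkE120. It ends at 3102159, just before the start of Eif4enif1 at 3102395. Eif4enif1 had an H3K27ac peak within 1 kb of a start in wt and in ΔIkE120. On the fragment near Purb, reads thus ranged from 0 to 3020 between libraries of the same line.
chr11:6461734-6461947: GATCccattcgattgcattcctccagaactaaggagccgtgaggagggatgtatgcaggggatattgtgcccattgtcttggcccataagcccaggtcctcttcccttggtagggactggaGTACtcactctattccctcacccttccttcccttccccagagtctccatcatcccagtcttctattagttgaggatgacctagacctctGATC
chr11:6373701-6373991: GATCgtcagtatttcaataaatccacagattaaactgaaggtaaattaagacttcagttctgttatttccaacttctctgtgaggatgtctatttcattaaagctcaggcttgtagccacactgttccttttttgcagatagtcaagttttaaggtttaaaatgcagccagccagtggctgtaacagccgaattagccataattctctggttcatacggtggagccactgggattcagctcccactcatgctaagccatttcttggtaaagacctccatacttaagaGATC
chr11:3102022-3102159: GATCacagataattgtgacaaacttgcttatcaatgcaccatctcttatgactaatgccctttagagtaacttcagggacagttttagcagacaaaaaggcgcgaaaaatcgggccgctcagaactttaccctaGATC

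The last 3 shown lay in or near Abca13. A fragment of 377 bases, chr11:9214509-9214885, overlaps a coding exon of Abca13 and the intron after it, and had 12 reads in DN3, 336 in ES, 25 and 0 in wt unstimulated and stimulated, and 827 and 290 in ΔIkE120 unstimulated and stimulated. A pair of fragments outside genes between Abca13 and the bait, chr11:9920653-9921024 and chr11:9914332-9914629, had 69 and 2 in DN3, 1226 and 1100 in ES, 140 and 3 in wt unstimulated, 157 and 0 in wt stimulated, 0 and 167 in ΔIkE120 unstimulated, and 929 and 112 in ΔIkE120 stimulated. In plain reads, not scaled to depth, ES had the most on both of this pair. They lie in the stretch where ES was also above every lymphoid library in covered fragments. Over the chromosome ES held 3366689 reads and ΔIkE120 stimulated 2568897, so their order on chr11:9920653-9921024 may reflect depth.
chr11:9214509-9214628: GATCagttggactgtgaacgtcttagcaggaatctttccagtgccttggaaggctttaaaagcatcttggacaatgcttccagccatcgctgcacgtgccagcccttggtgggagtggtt
chr11:9920653-9920772: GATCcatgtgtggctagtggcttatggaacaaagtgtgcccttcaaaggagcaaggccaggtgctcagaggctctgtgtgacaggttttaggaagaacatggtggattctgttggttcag
chr11:9914332-9914629: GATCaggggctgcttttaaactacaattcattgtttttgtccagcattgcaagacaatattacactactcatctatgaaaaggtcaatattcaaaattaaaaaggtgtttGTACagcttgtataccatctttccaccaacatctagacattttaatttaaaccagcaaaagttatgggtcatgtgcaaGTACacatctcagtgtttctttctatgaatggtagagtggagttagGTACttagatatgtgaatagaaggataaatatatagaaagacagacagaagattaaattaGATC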

How the data were processed

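The authors deposited 4C read counts per DpnII fragment of chromosome 11 (mm9 by the study's methods, which name Bowtie and the 4See and peakC tools) and H3K27ac peaks with −log10 q-values (GRCm38; Bowtie2 2.3.4.3 and MACS2 2.1.1 in the submitters' notes). The notes name only GRCm38, but all 295444 fragment midpoints equalled those of DpnII fragments cut from mm9. Genes were taken from GENCODE M1 (mm9), by start, and joined to RefSeq promoters (GRCm38) by symbol only. Fragments were counted in bins of 200 kb outward from the bait with Python 3.11.15, pandas 2.3.3 and scipy 1.17.1. A library was scaled by its covered share beyond 1 Mb. Intervals are Clopper-Pearson, and for ratios exact conditional binomial. Conditions were not tested for significance, since each has 1 library. The script for calling bins was tried on simulated coverage with known folds. Named bins were the 4 per side with the highest lowest lymphoid value, the 4 largest and 4 smallest lymphoid to ES ratios, and up to 2 per direction and P5424 contrast. DN3 against P5424, the count of bins lower in lymphoid cells than in ES and the count of at least 10 were added later. Bins named for DN3 and stretches of joined bins were chosen after their values were seen. The members and lists were chosen with earlier results of these data known.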

Additional observations from a re-analysis of the deposited data

Results flagged for a closer look

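With 1 library per condition, several ratios of covered shares lay on opposite sides of 1 in the 2 states or the 2 genotypes, and these differences were not tested. ΔIkE120 over wt was 0.976 unstimulated and 1.31 stimulated in the whole range, 0.990 and 1.29 upstream, and 0.952 and 1.35 downstream; each unstimulated value had an interval that held 1. Stimulated over unstimulated upstream was 0.774 in wt and 1.01 in ΔIkE120, where the interval of ΔIkE120 (0.936 to 1.09) held 1. All of these rest on wt stimulated, the library with the fewest covered fragments. In the bin that starts at 14183521, the fold of ΔIkE120 over wt was 0.411 unstimulated (19 and 8 covered fragments) and 2.52 stimulated (3 and 10).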

How the results depend on the processing

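No paired analysis was run, as each condition has 1 library. In P5424, genotype was compared within each state and stimulation within each genotype. The ES to DN3 ratio of 1.83 was 2.02 with at least 10 reads per covered fragment and 1.71 after thinning to the smallest library, and was within its counting interval otherwise. With at least 10 reads, bins past 2 fold between ΔIkE120 and wt, unstimulated, went from 6 to 11. Counting runs of neighbouring fragments as 1 left 2 DN3-high bins of 5. With fragments of 200 to 2000 bases holding GTAC there were 28 bins with at least 10 covered fragments in all lymphoid libraries (49), 9 past 2 fold with stimulation in wt (14) and 2 DN3-high bins. Bins of 100 kb and 500 kb change the number of bins, 166 and 34. They gave 153 and 34 bins covered in all lymphoid libraries, 26 and 5 lymphoid-high and 74 and 14 lymphoid-low bins, and 500-kb bins gave 30 with at least 10 covered fragments. Past 2 fold were 16 and 1 between ΔIkE120 and wt unstimulated, 23 and 6 with stimulation in wt, and in 500-kb bins 0 between ΔIkE120 and wt stimulated and 1 with stimulation in ΔIkE120. Shifting bins by 100 kb gave 3 bins past 2 fold with stimulation in ΔIkE120 (8). Scaling to the range alone gave 19 lymphoid-high bins (10) and 5 past 2 fold with stimulation in ΔIkE120. Counting reads gave 39, 23, 41 and 33 bins past 2 fold in the 4 contrasts of P5424, in place of 6, 6, 14 and 8. Of these, 21, 16, 13 and 8 were higher, in place of 2, 3, 0 and 0. The cause was not tested. Leaving out 1 lymphoid library at a time gave 83 bins covered in all, 10 to 13 lymphoid-high and 34 to 38 lymphoid-low bins. Of the 10 lymphoid-high bins 7, and of the 35 lymphoid-low bins 24, kept their call in all 12 alternatives on the same bins. Promoter peaks were found at 63 genes within 2.5 kb in place of 61 in wt and still at 61 in ΔIkE120, so 2 genes had a wt peak only in place of 0. Bins with few covered fragments limit the P5424 contrasts, whose largest folds, other than between ΔIkE120 and wt unstimulated, rest on counts of 1 to 3.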
